A study of Mus musculus with 12 samples.

Results

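The cholesterol genes described here are 7 named genes of cholesterol synthesis, its feedback control and its removal from the brain: Hmgcs1, Fdps, Fdft1, Sqle, Dhcr7, Insig1 and Cyp46a1. They were picked by symbol, and 6 of the 7 matched a row of the 12158 genes in the expression table. Hmgcs1 matched under neither its symbol nor its RefSeq synonym and is not analysed here. RNA came from bulk mouse forebrain on the C57BL/6N strain at 3 embryonic stages named by day (e12.5, e14.5, e17.5), on the day of birth (P0), and from adult mice (P56 in the labels). At each stage the animals were wild type or heterozygous for Chd8, a chromatin remodelling enzyme (genotype Chd8+/del5). The mutation is described as germline, so it is not limited to a cell type.

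The table holds 44 libraries: 8 of e12.5, 9 of e14.5, 10 of e17.5, 11 of P0 and 6 of adults. Column names give the stage and digit codes that no label explains, so no library was given a genotype and every stage below mixes both genotypes. Chd8 spanned 3.08 to 4.96 log2 units over all libraries and overlapped between neighbouring stages. Values are log2 RPKM, the logarithm of reads scaled to gene length and library size, so levels of different genes can be set side by side. A gene is called higher or lower at a stage only where the ranges of the 2 stages do not overlap. This is a description with no p-value. Low values gave an estimate of relative depth for 31 libraries, from 0.604 to 3.29 times the middle one, and for 0 at e17.5. A stricter search, run first, gave 12 libraries and 0.787 to 2.14, so the range depends on the search. Sequencing was paired-end with 100 bp reads at e12.5 and single-end with 50 bp reads at the other stages, so stage and read type cannot be told apart at e12.5. Adult library 1 stood apart, and several results that rest on it are given with and without it.

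Cholesterol does not cross the blood-brain barrier, so the brain makes its own. Acetyl-CoA is built up through mevalonate to farnesyl diphosphate, which squalene synthase joins into squalene. Squalene is oxidised and closed to lanosterol, and a series of further steps yields cholesterol. When sterols are low, the transcription factor SREBP2 is carried to the Golgi and switches these enzymes on together, while INSIG proteins hold it in the endoplasmic reticulum when sterols are high. Neurons dispose of surplus cholesterol by turning it into 24S-hydroxycholesterol, which can leave the brain.

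Promoter sequence was read because the synthesis genes are known to share sterol control. The RefSeq promoter table (build GRCm38.p6) held 4 of the 7 genes: Hmgcs1, Insig1, Dhcr7 and Cyp46a1. The sequences below are the 250 bases before the start on the plus strand, at chr13:119690101-119690350 for Hmgcs1, chr5:28071162-28071411 for Insig1 and chr12:108334066-108334315 for Cyp46a1. They are shown as a synthesis gene, the feedback gene and the turnover gene, and capitals mark the motifs found.
Hmgcs1: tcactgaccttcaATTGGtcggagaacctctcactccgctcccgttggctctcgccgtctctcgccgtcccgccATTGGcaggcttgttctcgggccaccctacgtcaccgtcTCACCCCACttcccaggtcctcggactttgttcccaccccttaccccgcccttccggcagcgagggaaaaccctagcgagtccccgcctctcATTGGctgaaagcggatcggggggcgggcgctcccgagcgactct
Insig1: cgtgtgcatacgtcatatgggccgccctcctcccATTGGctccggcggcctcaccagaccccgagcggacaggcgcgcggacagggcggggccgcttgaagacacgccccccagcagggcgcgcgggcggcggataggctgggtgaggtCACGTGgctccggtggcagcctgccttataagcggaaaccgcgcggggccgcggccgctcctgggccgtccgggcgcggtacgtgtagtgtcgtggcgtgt
Cyp46a1: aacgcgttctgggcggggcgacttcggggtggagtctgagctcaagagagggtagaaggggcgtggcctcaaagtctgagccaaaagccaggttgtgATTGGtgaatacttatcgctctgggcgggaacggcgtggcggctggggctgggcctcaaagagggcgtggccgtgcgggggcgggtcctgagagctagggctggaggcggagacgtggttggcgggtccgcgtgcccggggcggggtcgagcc

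Motifs were searched on both strands, and no match overlapped a different motif. The sterol element TCACNCCAC stood 137 bases before the Hmgcs1 start and in none of the other windows of these genes, against 1.05% of 32851 promoters. The E-box CACGTG stood 101 bases before the Insig1 start, and in 1 of 3 Dhcr7 windows, against 6.02% of promoters. The short CCAAT box occurred in windows of all 4 genes and in 33.8% of promoters. Among the 16 genes of a wider synthesis list that the table held, 15 had a CCAAT box, 3 an E-box and 1, Hmgcs1, the sterol element. Some genes have several windows in the table, which gives them more chances of a match. A match describes letters only, and the lack of a match to these strings does not show that a site is absent. G and C made up 72.8% of the Insig1 window, 67.6% of the Cyp46a1 window and 64.8% of the Hmgcs1 window, against a median of 52.4% over all promoters. The 3 Dhcr7 windows had 61.6%, 44.8% and 65.2%.

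The 4 synthesis enzymes had their lowest medians in adults, and the turnover enzyme its highest. Fdps makes farnesyl diphosphate, the branch point to sterols and isoprenoids. Its median was 6.39 at e12.5 (6.28 to 6.54), 5.31 at e14.5 (4.89 to 5.71), 6.01 at e17.5 (5.69 to 6.31), 5.91 at P0 (5.60 to 6.25) and 4.38 in adults (4.27 to 5.22). The e12.5 libraries lay above all e14.5 libraries, and the adults below all P0 libraries. Adult library 1, at 5.22, was the only adult above 4.57.

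Fdft1 encodes squalene synthase, the first step committed to sterols. Its median was 5.91 at e12.5 (5.78 to 6.11), 5.54 at e14.5 (5.23 to 5.63), 6.11 at e17.5 (5.90 to 6.42), 6.20 at P0 (6.04 to 6.56) and 4.96 in adults (4.76 to 5.37). The e14.5 libraries lay below those of both neighbouring stages. The e17.5 and P0 ranges overlapped.

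Sqle encodes squalene epoxidase, a rate-limiting enzyme of the pathway. Its median was 6.42 at e12.5 (6.24 to 6.52), 6.26 at e14.5 (6.10 to 6.41), 6.71 at e17.5 (6.44 to 6.84), 6.57 at P0 (6.29 to 6.70) and 4.998 in adults (4.80 to 5.84). The libraries of the 4 earlier stages all lay above every adult library. Of neighbouring stages before adulthood, only e14.5 and e17.5 were apart, by 0.03 log2 units.

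Dhcr7 encodes 7-dehydrocholesterol reductase, the last step of one branch to cholesterol, and mutations of its human counterpart cause Smith-Lemli-Opitz syndrome. Its median was 4.98 at e12.5 (4.86 to 5.12), 4.48 at e14.5 (4.06 to 4.54), 4.62 at e17.5 (4.30 to 4.82), 4.74 at P0 (4.47 to 4.96) and 3.94 in adults (3.83 to 4.34). The adult range overlapped that of e14.5 and lay below that of P0 by 0.13. Neighbours in the order of levels, from adult through e14.5, e17.5 and P0 to e12.5, overlapped at each step.

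Insig1, the feedback gene, is itself switched on by SREBP2. Its median was 5.23 at e12.5 (5.09 to 5.43), 4.25 at e14.5 (4.06 to 4.44), 4.57 at e17.5 (4.32 to 4.72), 4.47 at P0 (4.25 to 4.69) and 4.38 in adults (4.07 to 4.60). Only the e12.5 libraries stood apart from the rest. From e14.5 on, the ranges of all stages that were compared overlapped.

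Cyp46a1 encodes cholesterol 24-hydroxylase, the enzyme that makes 24S-hydroxycholesterol. Its median was 1.72 at e12.5 (1.30 to 2.12), 2.44 at e14.5 (2.28 to 3.07), 3.35 at e17.5 (2.96 to 3.89), 4.50 at P0 (4.10 to 4.73) and 7.41 in adults (7.06 to 7.80). The medians were higher at every later stage, and the ranges were apart at each step except from e14.5 to e17.5, where they overlapped by 0.11. In RPKM, the median was 3.30 at e12.5 and 171 in adults.

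**Figure D1:**
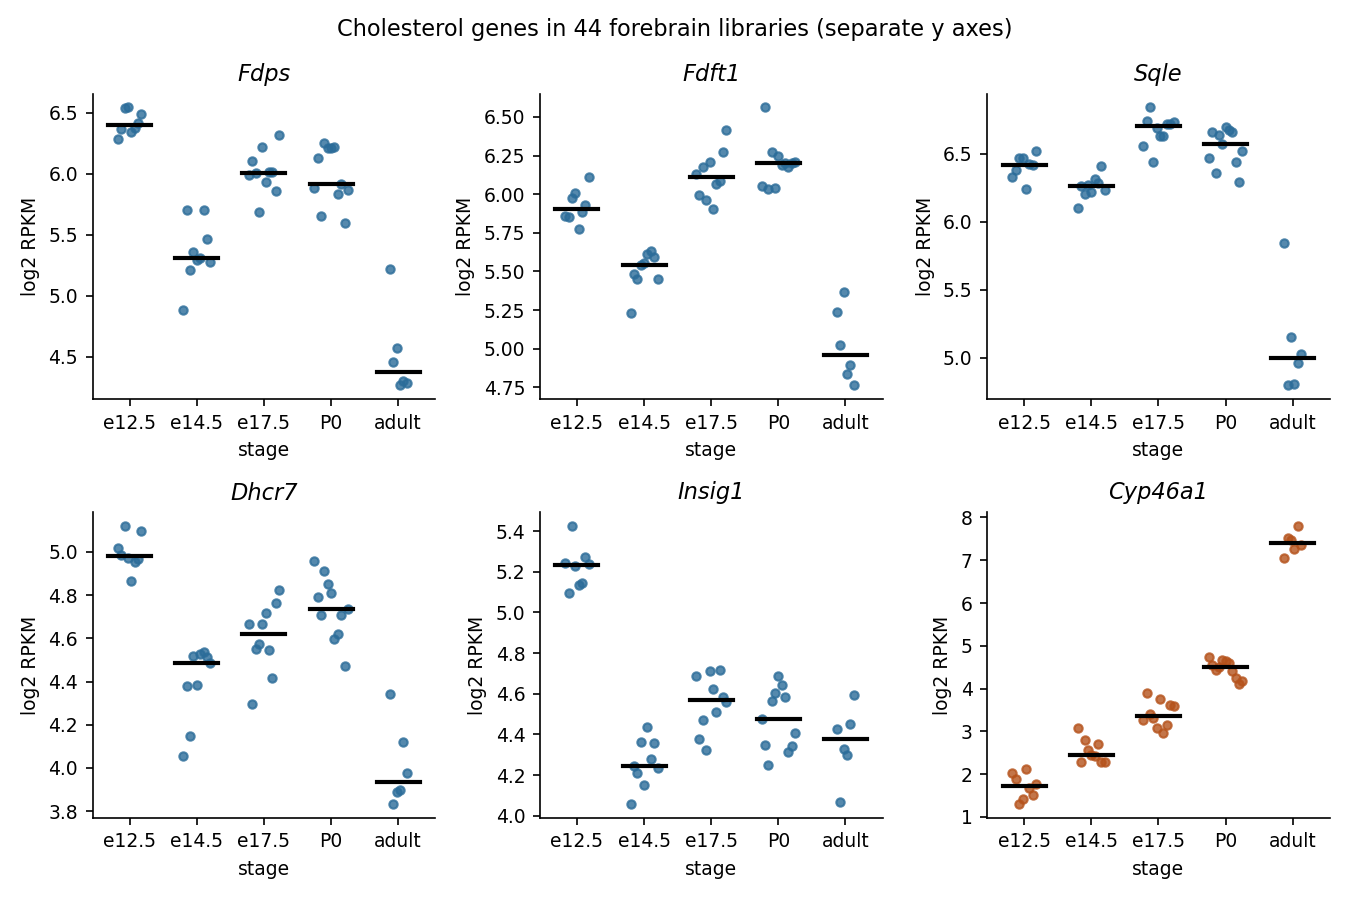
Log2 RPKM of 6 cholesterol genes in each of the 44 libraries by stage, with a bar at the stage median and a separate y axis for each gene. Fdps, Fdft1, Sqle and Dhcr7 have their lowest medians in adults, the Insig1 medians after e12.5 lie between 4.25 and 4.57, and Cyp46a1 reaches 7.41 in adults.

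Between P0 and adulthood, 4 of the 6 measured genes were lower and 1 higher. Over all genes, 25.1% were lower and 29.4% higher, with a median difference of −0.01. Of all genes called, 53.9% were higher as deposited, against 47.2% with median centring and 46.0% with quantile normalization. Sqle was lower by −1.57 on the log2 scale (2.98-fold), Fdps by −1.54 (2.90-fold), Fdft1 by −1.24 (2.36-fold) and Dhcr7 by −0.80 (1.74-fold). Cyp46a1 was higher by 2.91 (7.54-fold), with 2.32 between the nearest libraries of the 2 stages. Insig1 differed by −0.10 with overlapping ranges. Without adult library 1 the same 4 genes were lower and the differences were −1.61 for Sqle, −1.61 for Fdps, −1.31 for Fdft1 and −0.84 for Dhcr7.

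For Sqle, Fdps, Dhcr7 and Cyp46a1, adult library 1 lay outside the other 5 adults, on the side of P0. From the median of those 5 it was 54.6% of the way to the P0 median for Sqle, 56.7% for Fdps, 53.2% for Dhcr7 and 14.3% for Cyp46a1. For Fdft1 (26.5%) and Insig1 (66.9%) it lay inside their range. Several of its marker sums also stood outside those of the other adults. Genes of dividing cells summed to 25.9 RPKM (1.77 to 2.84 in the other 5) and those of radial glia to 454 (83.1 to 128). Markers of mature neurons summed to 4988 (6438 to 8579 in the other 5) and those of myelin to 954 (1363 to 2341). Their part in the values of this library was not tested.

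Markers of several cell types differed between P0 and adults at the same time, where 29.4% of all genes were higher and 25.1% lower. All 9 markers of mature neurons were higher, their sum going from 627 to 1035 RPKM at P0 to 4988 to 8579 in adults. All 9 myelin markers were higher, from 29.4 to 43.2 at P0 to 954 to 2341 in adults. Of the astrocyte markers 5 of 8 were higher (275 to 394 at P0, 823 to 1627 in adults), and so were 6 of the 6 microglial ones in the table (7 listed) (47.2 to 75.9 at P0, 136 to 259 in adults). Of the radial glial markers 5 of 8 were lower and 1 higher (778 to 1013 at P0, 83.1 to 454 in adults). Of those of dividing cells 5 of 8 were lower (29.5 to 57.0 at P0, 1.77 to 25.9 in adults). Endothelial markers had 2 of 6 higher and 1 lower, near the shares of all genes (62.5 to 92.0 at P0, 62.1 to 86.7 in adults). Of the 3 red cell genes in the table, which are 2 embryonic globins and Alas2, 0 were apart (2.12 to 3.86 at P0, 1.85 to 5.80 in adults). The part of these cell types in the cholesterol results was not tested. In bulk tissue, fewer cells of a type and less RNA per cell cannot be told apart. The table holds no zeros, and the lowest of the myelin markers at P0 was Mobp, with a median of −4.77.

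The wider synthesis list of 21 genes, 20 of them in the table, includes Fdps, Fdft1, Sqle and Dhcr7. From P0 to adult 11 of the 20 were lower, 1 was higher and 8 overlapped, with a median difference of −0.90. Of all genes, 25.1% were lower and 29.4% higher, with a median difference of −0.01. Of the 16 genes besides those 4, 7 were lower, 1 was higher and 8 overlapped, with a median of −0.82. Cyp51, which removes a methyl group from lanosterol, was lower by −1.36. Acat2, which joins 2 acetyl-CoA at the start of the pathway, differed by −0.97 with overlapping ranges. The gene that was higher was Ebp, the sterol isomerase, by 0.79, with 2.29 to 3.11 at P0 and 3.44 to 4.14 in adults.

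The list can be divided at lanosterol. Ggps1 was put in neither part, and it differed from P0 to adult by −0.11 with overlapping ranges. Of the 10 measured genes from Acat2 to lanosterol synthase (Lss), 8 were lower and 0 higher, and the other 2, Acat2 and Idi1, overlapped. Their summed level went from 429.6 to 563.0 RPKM at P0 to 174.5 to 300.4 in adults. Of the 9 genes after lanosterol, 3 were lower (Cyp51, Nsdhl and Dhcr7), Ebp was higher and 5 overlapped. Their sum was 234.2 to 291.0 RPKM at P0 and 200.4 to 236.2 in adults, and these ranges overlapped. Without the members, 5 of 7 genes up to lanosterol and 2 of 8 after it were lower. The share after lanosterol was near the 25.1% of all genes that were lower. The division was made after the values were seen, and the difference between the parts was not tested.

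**Figure D2:**
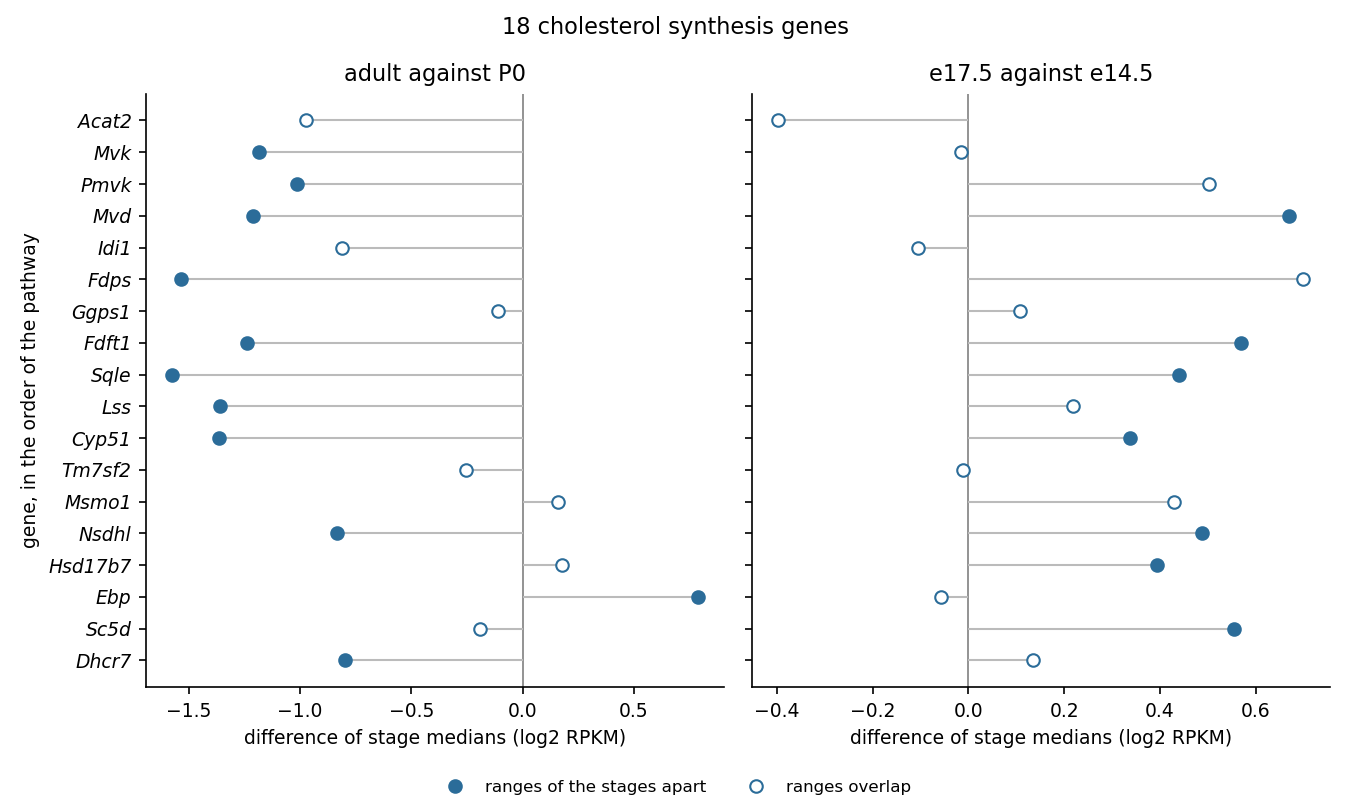
Difference of stage medians in log2 RPKM for 18 of the 20 cholesterol synthesis genes in the order of the pathway, for adult against P0 (left) and e17.5 against e14.5 (right). Filled points mark genes whose ranges were apart: 10 lower and 1 higher on the left, 7 higher on the right.

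Against e14.5, adults had 1 of the 6 genes lower and 1 higher, where 32.3% of all genes were lower and 31.0% higher. Sqle was lower by −1.27 and Cyp46a1 higher by 4.98 (31.5-fold). Fdps differed by −0.93 and Fdft1 by −0.58, with overlapping ranges. Without adult library 1, Fdps was lower as well, by −1.01. Without e14.5 library 1, Fdft1 was lower in its place, by −0.59. Insig1 differed by 0.13. In the synthesis list 7 of 20 were lower and 4 higher (median −0.57), or 6 and 4 of 16 without the members, and the latter 4 included Hsd17b7, Sc5d and Ebp, which act after lanosterol.

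Before birth, several synthesis genes were at a low point at e14.5. From e12.5 to e14.5, 4 of the 6 genes were lower and 1 higher, against 22.3% and 23.0% of all genes. Fdps was lower by −1.09 (2.12-fold), Insig1 by −0.99 (1.98-fold), Dhcr7 by −0.50 and Fdft1 by −0.37, while Cyp46a1 was higher by 0.72 and Sqle overlapped at −0.15. In the synthesis list 14 of 20 were lower and 0 higher (median −0.41, against 0.03 for all genes), or 11 and 0 of 16 without the members. Idi1, which converts isopentenyl diphosphate to its isomer, was at 3.55 to 3.74 at e12.5 and between −1.51 and −0.14 in all later libraries. The change of read type falls on this step and cannot be told apart from the stage. Beside it, the 3 red cell genes summed to 1596 to 4318 RPKM at e12.5 and 61.9 to 525.7 at e14.5, and their part was not tested.

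From e14.5 to e17.5, both read as single ends, 2 of the 6 genes were higher and 0 lower, against 13.1% and 12.1% of all genes. Fdft1 was higher by 0.57 and Sqle by 0.44. Fdps differed by 0.70, Cyp46a1 by 0.91, Insig1 by 0.33 and Dhcr7 by 0.13, all with overlapping ranges. In the synthesis list 8 of 20 were higher and 0 lower (median 0.32), or 6 and 0 of 16 without the members. At e17.5 the low values did not show whole steps of a read as at e14.5 and P0, so the base and scaling of these values are less sure in both comparisons with e17.5. The e17.5 names fall into 2 sets of 5 libraries, with sample numbers of 3 digits or of 1 digit. Fdft1 differed from e14.5 by 0.59 in the first set and 0.55 in the second, and Sqle by 0.43 and 0.45. With the second set alone 4 genes were higher, with Fdps and Insig1 added, and with the first alone 3, with Cyp46a1 added. Cyp46a1 was also higher, by 0.92, without e14.5 library 1.

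From e17.5 to P0, 1 of the 6 genes was higher, Cyp46a1 by 1.15 (2.22-fold), and 0 were lower, against 4.87% and 6.25% of all genes. It was higher than either e17.5 set, by 1.20 and 0.92. The differences of the other 5 genes lay between −0.13 and 0.12, and their ranges overlapped. In the synthesis list 1 gene was higher, Pmvk by 0.43, and 0 were lower.

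RNA levels of a turnover gene and a synthesis gene can be compared within each library, where scaling between libraries cancels. This does not measure turnover or synthesis themselves. Stage and read type still cannot be told apart at e12.5, and the base stays less sure at e17.5. Cyp46a1 minus Sqle was −4.75 at e12.5 (−5.17 to −4.12), −3.78 at e14.5 (−4.13 to −3.03), −3.21 at e17.5 (−3.67 to −2.85), −2.11 at P0 (−2.36 to −1.74) and 2.40 in adults (1.21 to 2.84). Cyp46a1 was thus below Sqle in every library up to P0 and above it in all 6 adults, adult library 1 being the lowest of them. Only the ranges of e12.5 and e14.5, and of e14.5 and e17.5, overlapped between neighbouring stages. Insig1 minus Sqle was −2.07 at P0 (−2.32 to −1.95) and −0.62 in adults (−1.42 to −0.43). Sqle minus Dhcr7 went from 1.78 (1.52 to 2.07) to 1.01 (0.85 to 1.50). The adult ends at −1.42 and 1.50 are those of adult library 1. Sqle minus Fdps was 0.54 at P0 (0.36 to 0.82) and 0.60 in adults (0.34 to 0.74), with overlapping ranges.

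**Figure D3:**
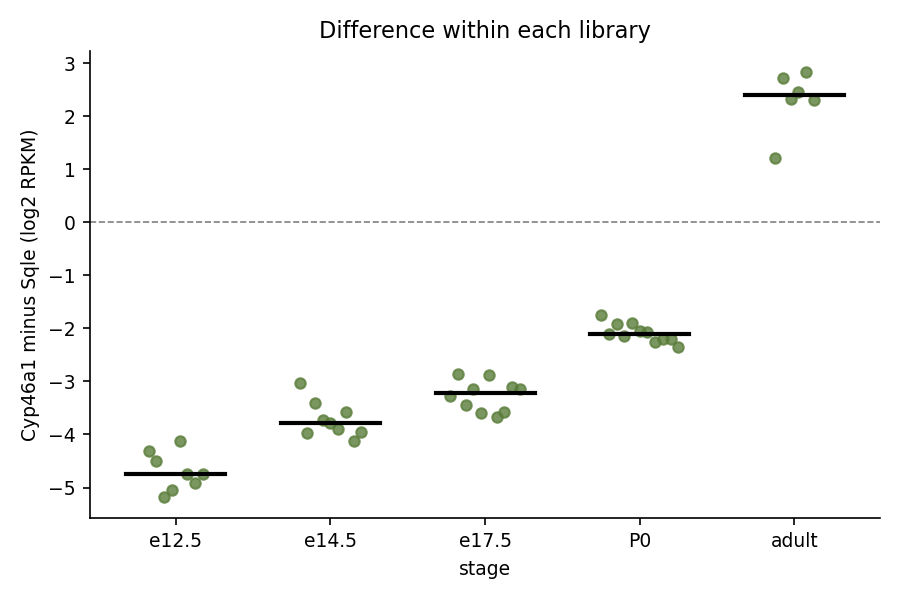
Cyp46a1 minus Sqle in log2 RPKM within each of the 44 libraries, by stage, with a bar at the median and a dashed line at equal levels. The medians go from −4.75 at e12.5 to 2.40 in adults, and only adult libraries lie above 0.

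Within a stage, libraries that were high in one synthesis gene tended to be high in the others. After each library's distance from its stage median was taken, Pearson's r over 44 libraries had a median of 0.45 over the 10 pairs of Fdps, Fdft1, Sqle, Dhcr7 and Insig1 (0.12 to 0.77). The median over all pairs of genes with a mean of at least 0 was −0.0027. Many other genes ran as closely with a member. Of 11806 genes, 0.246% had an r with Sqle at least that of Fdps, and 3.91% at least that of Fdft1. It was 6.14% for Dhcr7 and 9.14% for Insig1. For Fdft1, 40.2% of genes had an r at least that of Insig1. Sqle and Fdps had the highest r, 0.77 (0.65 without adult library 1), and Fdft1 and Insig1 the lowest, 0.12. Cyp46a1 had an r of −0.26 to −0.16 with the other 5. These values were not extreme, since 64.6% (Insig1) to 79.6% (Fdft1) of genes had an r with Cyp46a1 at least as high. The libraries share depth, dissection and both genotypes, and r is a description with no p-value.

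Taken stage by stage, the median r of the 10 pairs was 0.72 at e12.5, 0.78 at e14.5, 0.36 at e17.5, 0.40 at P0 and 0.54 in adults, over 8, 9, 10, 11 and 6 libraries. All 10 pairs were above 0 at e12.5 and e14.5, and 8 of 10 at P0. Sqle with Fdps had an r of 0.79, 0.65, 0.57, 0.83 and 0.94 from e12.5 to adults. The adult value, over 6 libraries, includes adult library 1, at 0.85 and 0.84 above the adult medians of Sqle and Fdps. An r of the adults without it is not given here. Without adult library 1 and e14.5 library 1, the median over all libraries was 0.38. All 5 genes were below their stage medians in 6 of the 44 libraries and all 5 above them in 7, among these adult library 1.

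**Figure D4:**
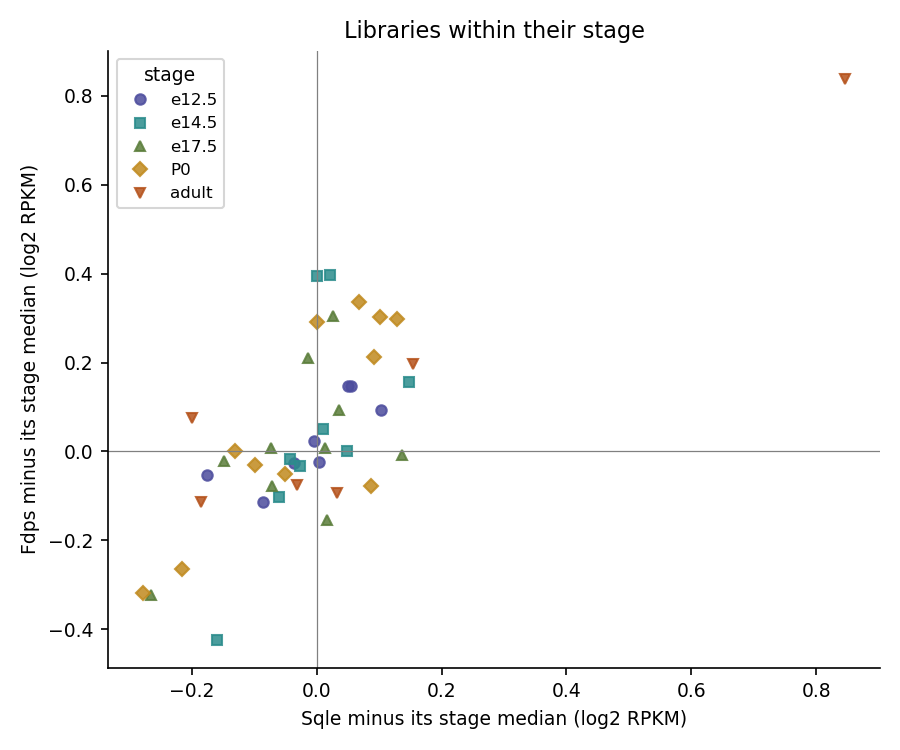
Distance of each of 44 libraries from its stage median in log2 RPKM, Sqle on the x axis and Fdps on the y axis, coloured by stage. Libraries high in Sqle tend to be high in Fdps (r = 0.77, or 0.65 without adult library 1), with adult library 1 at the top right at 0.85 and 0.84.

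Of the list of sterol sensing and uptake, the table held 13 genes besides Insig1. At e14.5, 6 of them were lower and 2 higher than at e12.5, against 22.3% and 23.0% of all genes. From P0 to adult 4 of the 13 were higher and 0 lower. The share of higher genes was near the 29.4% of all genes, of which 25.1% were lower. Insig2, the second INSIG gene, was higher in adults than at P0 by 1.74, with 2.24 to 2.79 at P0 and 3.99 to 4.59 in adults. Mylip, which encodes a ubiquitin ligase of sterol uptake, was higher in adults than at e14.5 by 1.65. Mbtps1 and Mbtps2, the proteases that release SREBP, were lower in adults than at e14.5 by −0.46 and −0.64.

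Of 15 genes of turnover and transport besides Cyp46a1, 6 were higher and 2 lower when adults were set against P0. Over all genes 29.4% were higher and 25.1% lower. The median difference of the 15 was 0.57. Apoe, the main carrier of cholesterol between brain cells, had medians of 4.92, 5.96, 7.51, 8.84 and 10.32 over the stages, and was higher at each step up to P0. Its adult range overlapped that of P0. Clu, another lipid carrier, was higher in adults than at P0 by 2.97, and Lcat, which esterifies cholesterol in lipoproteins, by 2.82. Cyp39a1, which acts on 24-hydroxycholesterol, went the other way, with medians of 3.48, 2.68, 1.81, 1.06 and 0.57. It was lower at each step up to P0.

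The genes whose levels ran most like each member over all 44 libraries were found among 11806 genes with a mean of at least 0. For Cyp46a1 they were Camta2 (r = 0.99) and Lpcat4 (0.99), and Snap25, a synaptic gene from the neuron list, had 0.98. For Sqle they were Ybx3 (0.97) and Efna2 (0.97), for Fdps Rps26 (0.95) and Nsdhl (0.93), and for Fdft1 Pdap1 (0.94) and Rybp (0.93). For Dhcr7 they were Stmn1 (0.90) and Usp10 (0.90), and for Insig1 Atp5g1 had an r of 0.89. Nsdhl is another enzyme of cholesterol synthesis. Most of this likeness is between stages, and Rps26, a ribosomal protein gene, has processed copies that can share its reads.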

How the data were processed

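RNA of bulk forebrain was sequenced from stranded polyadenylated libraries, per the labels' protocols. The authors deposited log2 RPKM values for 12158 genes in 44 libraries. The base was read from the values: low values above a shared floor fell on whole steps (tolerance 0.02 of a step) more often in base 2 than in base e in 33 of 44 libraries, but in only 1 of 10 at e17.5 (12.2% to 25.0% whole), where the base is taken from the other stages. The aligner STAR (2.4.2a) and build mm9 are named in the submitters' processing notes. Not given in the sources used here are the counter, annotation, prior count and between-library scaling. A prior count makes log2 differences of low genes too small.

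Libraries were numbered within a stage in table order, which is only a name. Since 0 columns could be tied to 1 labelled sample, no genotype was inferred from Chd8 and no test was run. No label ties a library to an animal, so ranges cover the spread between libraries, which may be technical. Relative depth was searched at 2 settings, below 12 steps with 75% whole and below 25 steps with 60% whole, the second chosen after the first was seen. Stage medians and ranges were compared in 5 pairs of stages with Python 3.11.15 and pandas 2.3.3. The calls were tested on simulated data with independent noise in each gene and library. Those data held no shared library effect and no change of read type, so they cannot test the stage differences. Alternatives were median centring, quantile normalization, dropping genes with a mean below 0, medians at least 1 log2 unit apart, each library left out in turn and, chosen after seeing the data, each e17.5 set and the removal of 2 libraries.

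The members and lists were chosen with earlier results of these data known. Named genes are Chd8, the members, up to 4 genes per list with the largest difference between adult and e14.5, and the 2 genes most like each member. Others, such as Idi1, Ebp, Pmvk, Cyp39a1, Hsd17b7, Sc5d and Nsdhl, were named after their values were seen. The Chd8 peak list, on mm9, was not used here. Some genes that the rule or lists cover are not reported here by name.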

Additional observations from a re-analysis of the deposited data

Results flagged for a closer look

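At the 4 stages with 6 to 10 libraries, the most extreme value of each measured gene was set against its neighbour. Of 24 such sets, 3 held a value far from the others, where chance would give about 1.2 if the sets were independent. They are not, since the genes share libraries. The Sqle and Fdps values below come from the same library. Sqle in adult library 1 was 5.84, with the next adult at 5.15. Fdps in adult library 1 was 5.22, with the next adult at 4.57. Fdft1 in e14.5 library 1 was 5.23, with the next e14.5 library at 5.45. P0, with 11 libraries, was not searched.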

How the results depend on the processing

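No difference of a measured gene that was called higher or lower changed its sign under median centring or quantile normalization. Under the other alternatives a sign could not change. They left the differences as they were or only left out libraries, and ranges that are apart keep their order. Of 100 counts and correlations under settings other than leaving out 1 library, 88 stayed within 1.5 times of, or within 0.1 of, the reported value. Dropping genes with a mean below 0 changed no call and took only Idi1 from the list. The outcomes of that setting were thus nearly fixed in advance. The demand that medians lie at least 1 log2 unit apart lowered counts. From e12.5 to e14.5 it left 1 of the 6 genes lower and 0 higher, and 2 of the synthesis list lower. From e14.5 to e17.5 it left 0 of the 6 and 0 of the list higher. It left 0 of the list higher from e17.5 to P0, from P0 to adult and from e14.5 to adult. With quantile normalization 2 of the 6 genes were lower in adults than at e14.5, and 2 of the list lower at P0 than at e17.5. With the e17.5 libraries of 1-digit sample numbers alone, 4 of the 6 were higher than at e14.5 and 2 of the list lower at P0.

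With 1 library left out, the counts that moved by over 1.5 times were 3. The list's count higher at e14.5 than at e12.5 was 0 to 1 (1 without e14.5 library 9). Its count lower at P0 than at e17.5 was 0 to 2 (2 without e17.5 library 4). The genes lower in adults than at e14.5 were 1 to 2 of the 6 (2 without adult library 1, with Fdps added, or without e14.5 library 1, with Fdft1 added). No paired analysis was possible because no column was tied to a labelled sample. The cause of these moves was not tested. The deposited table gives no read totals, so depth limits low values such as Idi1 most.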

Other observations

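SREBP proteins also control fatty acid synthesis. Of 8 genes of that pathway, 3 were higher and 1 lower when adults were set against P0, with a median difference of 0.14, where 29.4% of all genes were higher and 25.1% lower. The difference from the cholesterol list was not tested. Scd1, a desaturase that puts a double bond into fatty acids, was lowest at e14.5 (1.60 to 1.99), with 3.59 to 4.20 at e12.5, 3.18 to 3.65 at e17.5 and 3.20 to 3.91 at P0. In adults it was at 4.97 to 5.76. Acss2, which makes acetyl-CoA from acetate, was higher in adults than at P0 by 1.45. Me1 was higher in adults than at e14.5 by 1.49, and Acly, which makes acetyl-CoA from citrate, was lower by −0.89. At e14.5, 5 of the 8 were lower than at e12.5, against 22.3% of all genes. At e17.5, 3 were higher and 1 lower than at e14.5, against 13.1% and 12.1% of all genes. None of the 8 was apart between e17.5 and P0 in either direction, where 4.87% of all genes were higher and 6.25% lower.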
